A study of Mus musculus with 10 samples.

Results

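The 50 genes described here are imprinted mouse genes, each read as its gene body in the GENCODE M21 annotation extended by 10 kb on either side. They were taken from a list of gene names and are 50 of the 53843 annotated genes on chromosomes 1 to 19 and X. They lie in 21 clusters on 11 chromosomes, and their merged windows cover 3.88 Mb, or 0.147% of the mm10 (GRCm38) assembly. An imprinted gene is expressed mainly from a single parental copy, because its control region carries DNA methylation that was laid down in the oocyte or in sperm and is kept in the embryo. Sperm pack most of their DNA with protamines in place of histones, and the sites that stay open to an enzyme in mature sperm are therefore of interest at genes whose activity depends on the parent of origin. By textbook knowledge, 27 of the genes are expressed from the paternal copy and 20 from the maternal copy, while Grb10, Ddc and Gnas are expressed from either copy by isoform or tissue. A control region methylated in the oocyte lies at a start site of 20 genes, a control region methylated in sperm lies next to 10 genes, and 20 genes have neither. These assignments are also textbook knowledge and were not checked against methylation data, and that of Zdbf2 to the sperm-methylated class is uncertain.

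Open chromatin of mature sperm from the cauda epididymis was mapped by ATAC-seq, an assay of the DNA that the Tn5 transposase can reach, in wild-type C57BL/6JRccHsd males acquired at 3 weeks of age. The 6 F0 CD males received a chow diet with 14% protein and the 4 F0 WD males a Western diet with 40% of its energy from fat and 43% from carbohydrate, in both cases for 6 months, and each library is from 1 mouse. These group sizes follow the sample titles, whereas a sentence of the protocol gives 4 control and 6 Western diet samples. A peak is an interval that the authors called in 1 library with MACS2 at q 0.05, and the comparisons below are of the presence and number of peaks, since the lists hold no counts per gene.

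The lists held 13366 to 29532 peaks per library, and the smallest called summits held 9 to 13 reads, so a library without a peak may still have held reads there. Promoter peaks at 14 genes of mature sperm and late spermatids were called at 4 genes in any library and at 0 to 3 genes per library. Of 10 genes of the epididymal epithelium 3 had a promoter peak in any library, of 5 genes of other germ cells 3, and of 6 leukocyte genes 4, and none of these 35 genes had one in 5 or more libraries. The labelled cell type could therefore not be checked by these markers, and the part of other cells in the results was not tested.

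A few regions that the results below turn on are shown first by their letters. Each sequence holds the best summit with 100 bp on either side and is given 5′ to 3′ on the plus strand of mm10, read from the RefSeq copy of GRCm38. The capitals mark the tandem units searched on both strands, which were TGTGTGTG (CACACACA on the other strand) and the 12 letters most frequent in the Peg10 sequence, GAGGGGTGGTGT. The Ascl2, Copg2 and Peg10 regions had peaks in 9 or 10 libraries and the Herc3 region was called by diet. Of the regions found in 8 or more libraries, those of Ascl2, Copg2 and Peg10 were the least repeat-masked, at 61.7%, 10.9% and 0% of the bases. The others, at 94.0% to 100%, are not printed, so the printed letters are not typical of the recurrent regions. The Usp29 region was chosen after its values were seen, as the most recurrent region at a start site of a listed gene. The units searched were also chosen after the letters were seen.
Ascl2, chr7:142972484-142972684: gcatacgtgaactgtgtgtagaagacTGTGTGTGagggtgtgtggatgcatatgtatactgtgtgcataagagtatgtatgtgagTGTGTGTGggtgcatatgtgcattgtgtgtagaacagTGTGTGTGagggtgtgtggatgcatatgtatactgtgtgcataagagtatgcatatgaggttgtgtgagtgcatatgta
Peg10, chr6:4762371-4762571: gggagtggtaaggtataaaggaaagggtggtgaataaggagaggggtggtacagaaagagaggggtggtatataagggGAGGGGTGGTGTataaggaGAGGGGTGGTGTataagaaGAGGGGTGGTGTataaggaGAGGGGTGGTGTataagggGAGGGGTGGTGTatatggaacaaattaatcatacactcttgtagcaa
Copg2, chr6:30804857-30805057: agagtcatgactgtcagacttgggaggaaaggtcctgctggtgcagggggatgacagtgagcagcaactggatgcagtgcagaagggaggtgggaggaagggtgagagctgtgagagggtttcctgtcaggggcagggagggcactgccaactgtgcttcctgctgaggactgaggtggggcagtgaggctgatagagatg
Herc3, chr6:58844555-58844755: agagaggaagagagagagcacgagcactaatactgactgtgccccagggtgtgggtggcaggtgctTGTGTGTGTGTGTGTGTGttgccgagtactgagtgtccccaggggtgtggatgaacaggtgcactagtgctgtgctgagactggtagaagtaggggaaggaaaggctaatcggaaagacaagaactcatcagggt
Usp29, chr7:6735166-6735366: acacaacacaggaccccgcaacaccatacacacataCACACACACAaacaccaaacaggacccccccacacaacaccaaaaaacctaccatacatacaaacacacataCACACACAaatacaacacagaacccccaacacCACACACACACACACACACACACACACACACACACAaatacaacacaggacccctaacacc
The Peg10 sequence held 5 non-overlapping copies of its 12 letters, and the Usp29 sequence held 6 of the CA unit. The Copg2 sequence held neither unit. At least 1 copy of TGTGTGTG or its complement stood in 35 of the 62 windows at imprinted genes (56.5%) and in 71.9% of the 24608 windows of the same length at all consensus regions placed on chromosomes. The 12 letters of Peg10 stood in 2 of the 62 windows, 1 of them the Peg10 sequence they were taken from, and in 6 of the 24608.

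Peaks were found at nearly all of the imprinted genes. In at least 1 library 47 genes (94%) had a peak in their window, compared with 67.9% of all genes and 78.8% of protein-coding genes, and 8 genes (16%) had a peak in every library, compared with 2.71% and 5.00%. The median length of the gene bodies was 33.9 kb for the imprinted genes, 3.53 kb for all genes and 17.4 kb for protein-coding genes, and a longer window has more room for a peak. The genes with no peak in any library were Ube3a, the ubiquitin ligase gene that is maternally expressed in neurons, Nnat, which encodes neuronatin, and Dio3, which encodes a deiodinase that inactivates thyroid hormone. In 5 genes a peak was called in a single library. The heat map of peaks by gene and library shows that most of the counts stood outside promoters, in long genes such as Trappc9 with 4 to 12 peaks per library.

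**Figure D1:**
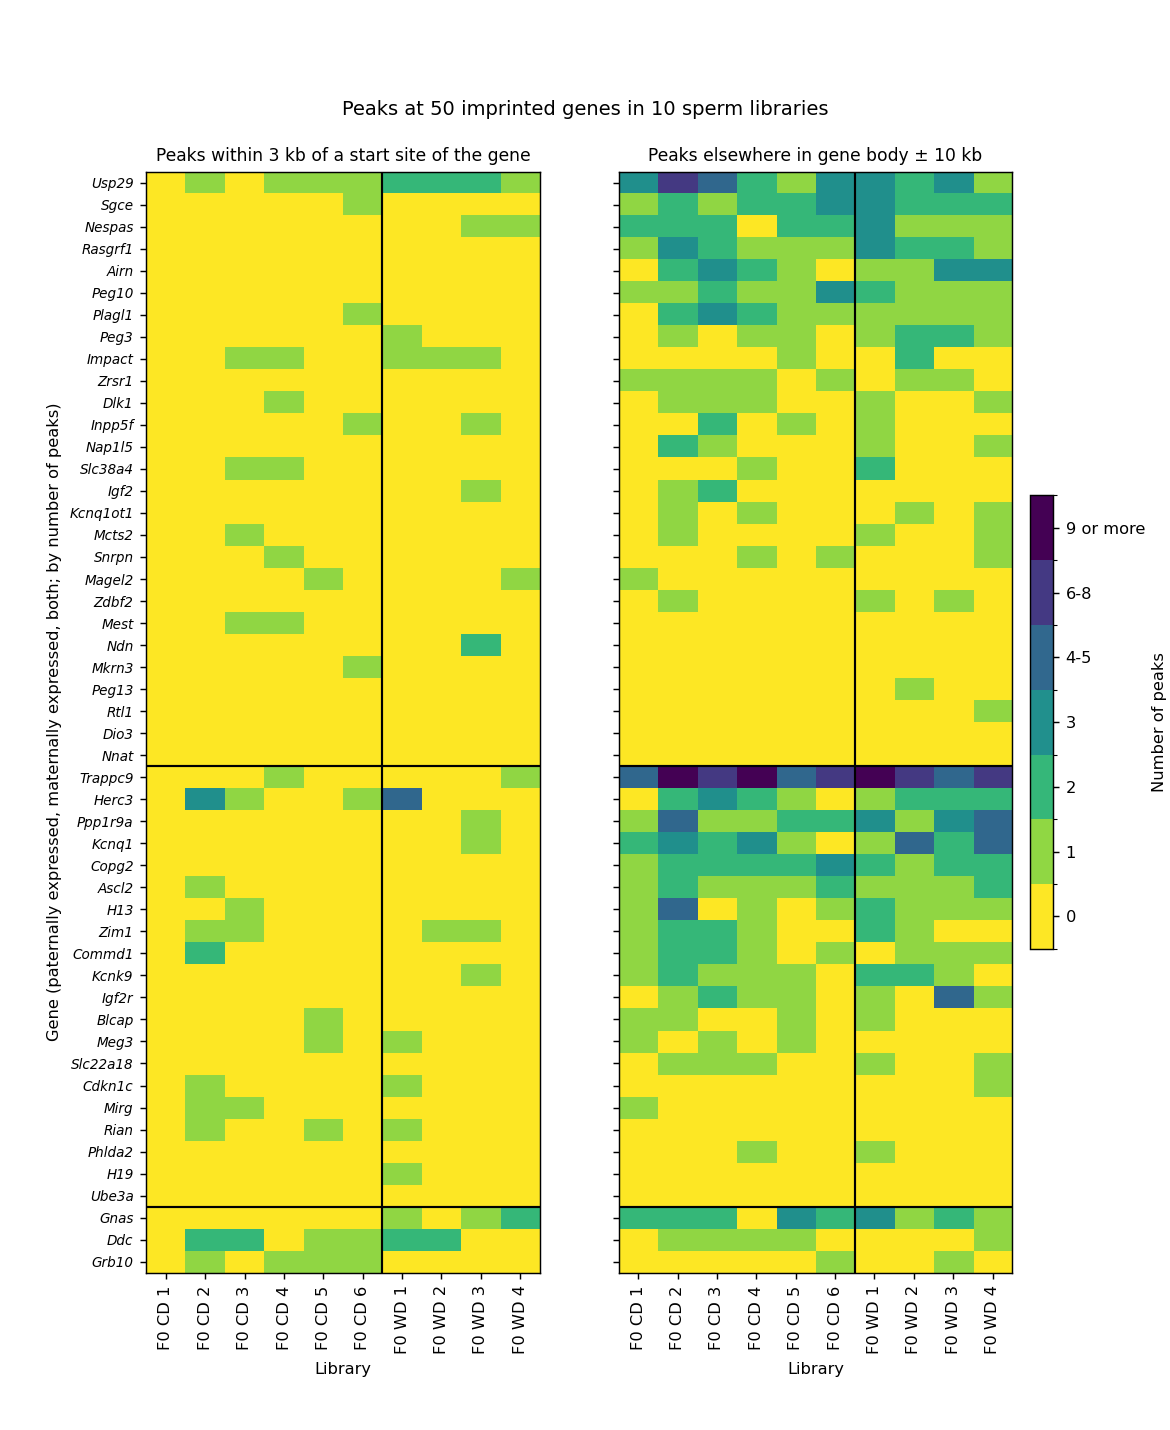
Number of peaks at each of the 50 genes (rows) in each of the 10 libraries (columns), within 3 kb of a start site of the gene (left) and elsewhere in the window (right). Horizontal lines part the paternally expressed, maternally expressed and mixed genes, and the vertical line parts F0 CD from F0 WD. The promoter column of F0 CD replicate 1 is empty, and Usp29 has the most filled promoter cells, in 8 of 10 libraries.

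The libraries held 26, 74, 57, 46, 34 and 38 peaks in the merged windows in F0 CD and 63, 39, 47 and 42 in F0 WD. Of these, 0, 14, 9, 8, 7 and 8 were promoter peaks in F0 CD and 14, 6, 12 and 5 in F0 WD. The diets overlapped in each count, and F0 CD replicate 1 was the single library without a promoter peak at any of the 50 genes. F0 CD libraries averaged 45.8 ± 17.4 peaks (SD, n = 6), and F0 WD libraries averaged 47.8 ± 10.7 peaks (SD, n = 4). Their difference of 1.92 peaks was smaller than its SE of 8.89, and it was 7.55 without F0 CD replicate 2, -2.05 without F0 CD replicate 1, -0.45 without F0 CD replicate 5 and -3.17 without F0 WD replicate 1. As a share of each list, the peaks in imprinted windows averaged 0.243% ± 0.0475 (SD, n = 6) for F0 CD. For F0 WD they averaged 0.283% ± 0.0407 (SD, n = 4), which was higher by 0.0406 percentage points with an SE of 0.0281. The lowest and highest shares, 0.189% and 0.323%, were both above the 0.147% of the genome that the windows cover.

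A promoter peak was defined as a peak within 3 kb of any annotated start site of the gene. In any library 34 genes had one, while 16 genes had none, 17 had one in 1 library alone and 17 in 2 or more libraries. The share of genes with a promoter peak ranged from 0% to 22% per library with a median of 16%, and that of all protein-coding genes ranged from 6.60% to 12.8% with a median of 8.19%. The imprinted genes have a median of 5 annotated start sites and protein-coding genes a median of 3, which widens the promoter windows. Among genes with 5 or more start sites, the mean share per library was 19.6% for the 28 imprinted genes and 12.8% for 7825 protein-coding genes, and with 1 to 4 start sites it was 7.73% for 22 imprinted genes and 5.99% for 13930 protein-coding genes. Counted per length, promoters of the imprinted genes held 1.14 ± 0.589 peaks per 100 kb (SD over 10 libraries) and the rest of their windows 1.21 ± 0.345, with promoters lower in 5 libraries and higher in 5. The same values for protein-coding genes were 0.791 ± 0.182 and 0.774 ± 0.202. By these values the imprinted windows held more peaks per length than those of protein-coding genes both inside and outside promoters, and no test was made of this difference.

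Usp29 had the most recurrent promoter peak. It encodes a deubiquitinase and starts head to head with Peg3, a zinc finger gene, at an oocyte-methylated control region. Its promoter peaks per library were 0, 1, 0, 1, 1 and 1 in F0 CD and 2, 2, 2 and 1 in F0 WD, so that 4 of 6 and 4 of 4 libraries had one (Fisher's exact test, two-sided, p = 0.467). They came mainly from the region printed above, chr7:6734568-6735423, found in 3 F0 CD and 4 F0 WD libraries (Fisher's exact test, p = 0.2). Its best summit lay 430 bp upstream of a Usp29 start within the gene and at -4835 bp from the Peg3 5′ end, where negative positions lie upstream. It held 12, 13 and 15 reads in the F0 CD libraries with a peak and 15, 15, 10 and 15 in F0 WD, 1 to 6 reads above the smallest called summit of the same library. Near the annotated 5′ ends of Usp29 and Peg3 themselves a peak was called in F0 WD replicate 1 alone, at -1907 bp from the Usp29 5′ end.

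Ddc and Impact were the other genes with a promoter peak in 5 or more libraries. Ddc, which encodes aromatic amino acid decarboxylase, had 0, 2, 2, 0, 1 and 1 promoter peaks in F0 CD and 2, 2, 0 and 0 in F0 WD. They were spread over several of its start sites, and the place found most often, chr11:11891196-11891685, had a peak in 4 libraries, 2 of each diet. Impact, which encodes an inhibitor of the Gcn2 kinase pathway, had a promoter peak in 2 of 6 F0 CD and 3 of 4 F0 WD libraries (Fisher's exact test, two-sided, p = 0.524). A promoter peak in 5 or more libraries was thus found for 3 of 50 genes (6%), compared with 2.5% of all genes and 3.42% of protein-coding genes.

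Promoter peaks were set beside the CpG content of the starts. Over a window of 300 bp around the annotated 5′ end, most of it upstream, 23 imprinted genes had a CpG observed over expected ratio above 0.6, and 12 of them (52.2%) had a promoter peak in any library. Of the other 27 genes 22 (81.5%) had one. Among protein-coding genes the shares were 44.7% and 38.8%. Promoters here include all start sites within 3 kb, so many of these peaks lay far from the 5′ end whose letters were counted.

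The paternally expressed genes were compared with the maternally expressed genes within each library. Windows of the classes overlap at places such as Zrsr1 and Commd1, Kcnq1ot1 and Kcnq1, and Airn and Igf2r. A peak shared by such genes counts in both classes, so the classes are not independent. The share of paternally expressed genes with a promoter peak was 0%, 3.70%, 14.8%, 22.2%, 7.41% and 18.5% in F0 CD and 11.1%, 7.41%, 22.2% and 11.1% in F0 WD. For the maternally expressed genes it was 0%, 35%, 20%, 5%, 15% and 5% in F0 CD and 25%, 5%, 20% and 5% in F0 WD. The paternal share was the higher in 5 libraries and the lower in 4, and both were 0 in F0 CD replicate 1. The mean shares were 11.9% and 13.5%, and the difference of -1.65 percentage points had an SD of 14.0 over the 10 libraries, so the classes differed by less than the spread between libraries. Without F0 CD replicate 2 the difference was 1.65 percentage points, and without the genes whose imprinting is partial or limited to an isoform or tissue, which left 25 and 10 genes, it was -4 with an SD of 20.8. Peaks outside promoters, divided by the whole window with its promoters, averaged 0.979 per 100 kb for the paternally expressed genes and 1.05 for the maternally expressed genes. That difference of -0.0701 had an SD of 0.161, with the paternal density the lower in 8 of 10 libraries. It was -0.231 with an SD of 0.185 for gene bodies without flanks, -0.156 with an SD of 0.188 with the start sites of any gene as promoters, and -0.0257 with an SD of 0.198 when divided by the length outside promoters.

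**Figure D2:**
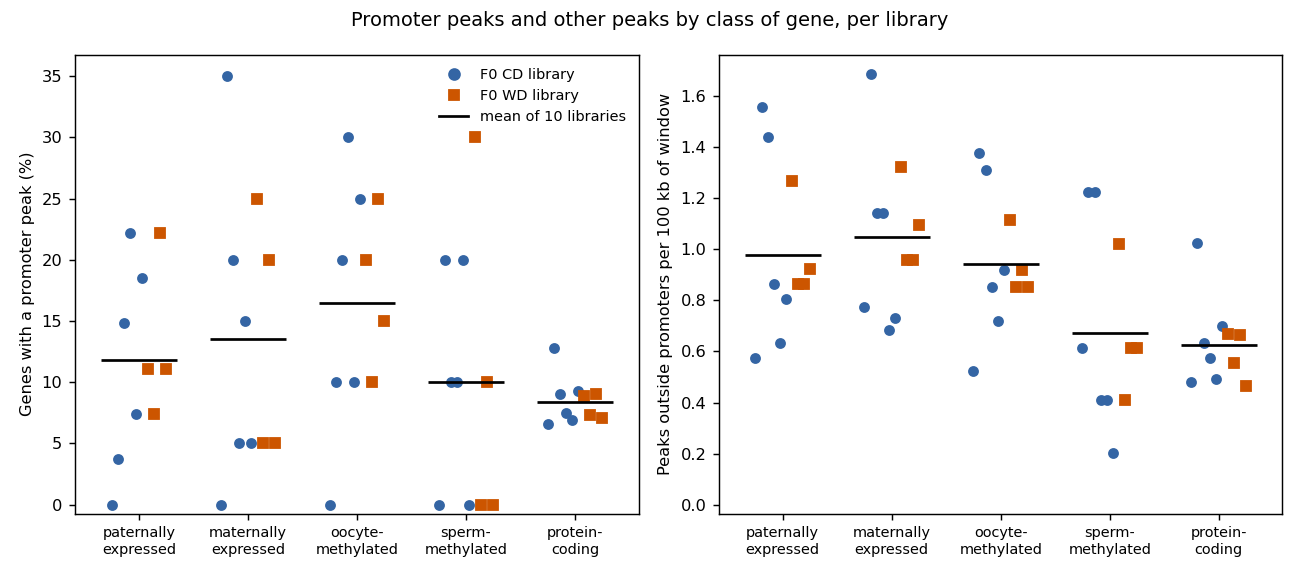
Percent of genes with a promoter peak (left) and peaks outside promoters per 100 kb of merged window (right) for 5 classes of gene, with 1 point per library (circles F0 CD, squares F0 WD) and a line at the mean of 10 libraries. The paternally and maternally expressed classes overlap in both panels, with mean shares of 11.9% and 13.5%.

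Genes at the 2 kinds of germline control region were set side by side in the same way. No coordinates of the control regions were used, and a promoter peak may lie at any start of the gene. In F0 CD replicate 2, for example, the Grb10 promoter peak lay 89524 bp from the annotated 5′ end. The shares below are therefore not of peaks at the control regions themselves. The share with a promoter peak averaged 16.5% for the 20 genes that start at an oocyte-methylated region, which is free of methylation in sperm, and 10% for the 10 genes next to a sperm-methylated region. The difference of 6.5 percentage points had an SD of 13.1 and was positive in 6 libraries and negative in 3. Peaks outside promoters came to 0.943 and 0.673 per 100 kb of whole window, a difference of 0.270 with an SD of 0.228, and the oocyte-methylated class was the higher in 9 of 10 libraries. Divided by the length outside promoters alone, the densities were 1.18 and 0.971, and the difference of 0.211 had an SD of 0.337 and was positive in 6 of 10 libraries, within the spread between libraries. With all 10 genes of the smaller class in 4 clusters, these values describe few places in the genome.

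The 10 genes assigned to sperm-methylated control regions, with Zdbf2 an uncertain case, are described one by one, and their windows are of unequal length. H19, a maternally expressed noncoding RNA, had 1 peak in F0 WD replicate 1 alone, with 13 reads at a summit at -1602 bp from its 5′ end. Igf2, the growth factor gene beside it, had 1 and 2 peaks in F0 CD replicates 2 and 3 and 1 in F0 WD replicate 3. Neither gene therefore had a peak in 4 or more libraries. In the Dlk1-Dio3 cluster, which codes for the Notch ligand homologue Dlk1 and for long noncoding RNAs of the maternal copy, Dlk1 had 0, 1, 1, 2, 0 and 0 peaks in F0 CD and 1, 0, 0 and 1 in F0 WD. All but 1 of these lay upstream, at -8186 to -7734 bp from its 5′ end, and F0 CD replicate 4 had a promoter peak at -435 bp as well. The maternally expressed RNA Meg3 had 1, 0, 1, 0, 2 and 0 peaks in F0 CD and 1, 0, 0 and 0 in F0 WD, while Rian had 1 peak each in replicates 2 and 5 of F0 CD and replicate 1 of F0 WD, and Mirg 1 peak each in replicates 1, 2 and 3 of F0 CD alone. Rtl1, a retrotransposon-derived gene needed in the placenta, had 1 peak in F0 WD replicate 4. Rasgrf1, which encodes an exchange factor for Ras and has the longest window of these genes, had the most peaks, with 1, 3, 2, 1, 1 and 1 peaks in F0 CD and 3, 2, 2 and 1 in F0 WD, none of them at a promoter. Per length, Dlk1 averaged 1.97 peaks per 100 kb of window per library, Rasgrf1 1.24, Igf2 1.11 and the other genes of this class 0 to 0.986. Zdbf2, a zinc finger gene active in early development and the brain, had 1 peak each in replicate 2 of F0 CD and replicates 1 and 3 of F0 WD, at -9500 to -8261 bp from its 5′ end.

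The windows with the most peaks per length belonged to Ascl2, Nespas, Peg10, Zim1 and Zrsr1. Ascl2, a transcription factor gene of the placenta, averaged 6.24 peaks per 100 kb per library, and its counts were 1, 3, 1, 1, 1 and 2 in F0 CD and 1, 1, 1 and 2 in F0 WD. The peak found in all 10 libraries, chr7:142972351-142972794, had its best summit 3320 bp upstream of the Ascl2 start, just beyond the promoter window. It held 19, 26, 13, 22, 19 and 12 reads at the summit in F0 CD and 22, 17, 17 and 20 in F0 WD, with the diets overlapping. Peg10, a retrotransposon-derived gene needed in the placenta, averaged 4.22 peaks per 100 kb. Its recurrent region, chr6:4762286-4762619, lay downstream of the gene, 15065 bp from the nearest Peg10 start. There the summits held 27, 32, 36, 24 and 33 reads in 5 F0 CD libraries and 24, 33, 21 and 30 in F0 WD, the highest median of the named regions, and F0 CD replicate 3 had no peak. No base of the printed sequence was repeat-masked, although it is built of the tandem unit shown above. Zim1, a zinc finger gene beside Peg3, averaged 2.88 peaks per 100 kb and Zrsr1, an intronless splicing factor gene inside an intron of Commd1, 2.86. Nespas, an antisense RNA of the Gnas locus, averaged 5.26 peaks per 100 kb and shares its peaks with Gnas.

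**Figure D3:**
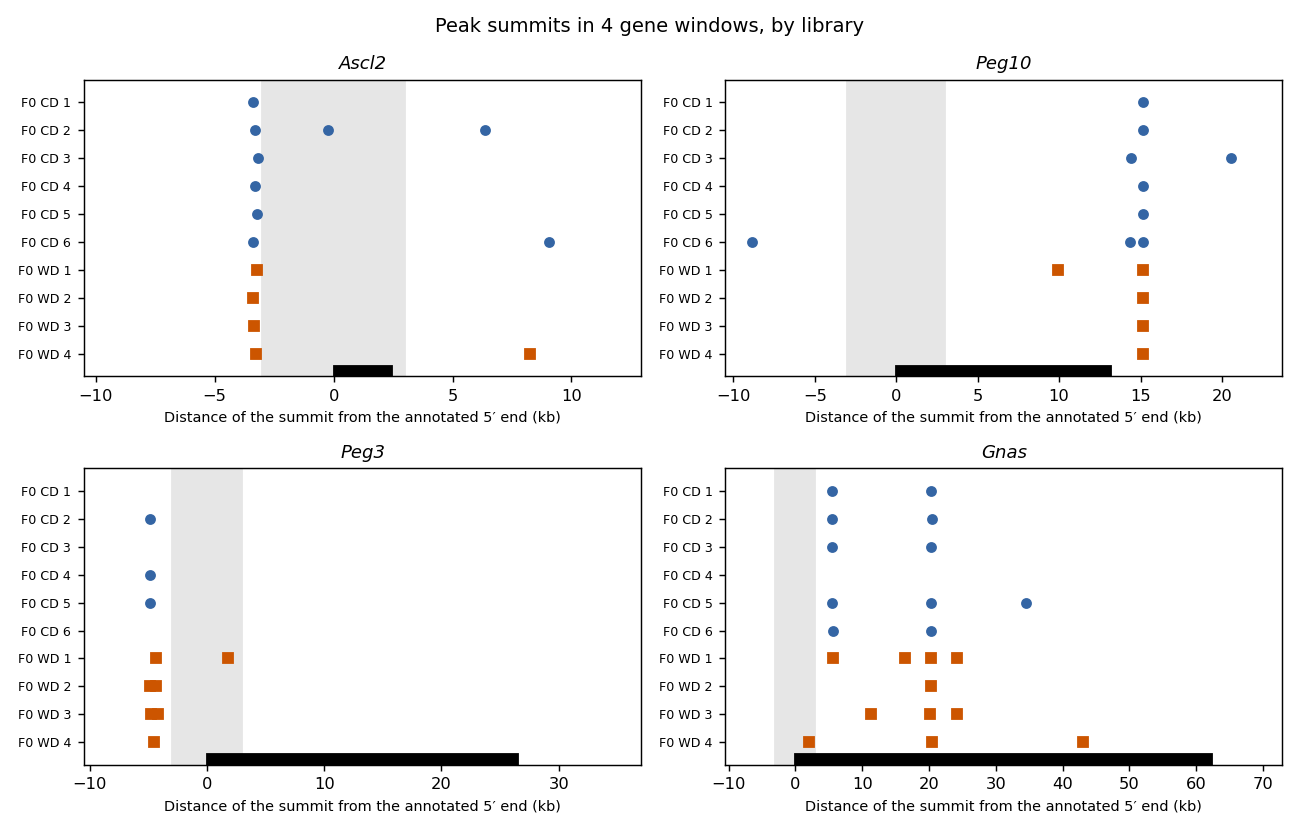
Summits of peaks in the windows of Ascl2, Peg10, Peg3 and Gnas, by distance from the annotated 5′ end in kb along the direction of transcription (x) and by library (y, circles F0 CD, squares F0 WD). The grey band is 3 kb on either side of the annotated 5′ end and the black bar is the gene body. Ascl2 has a summit just beyond the band in all 10 libraries, and Peg10 has a summit beyond its 3′ end at the same place in 9 libraries.

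Of 286 merged regions in the windows 224 had a peak in a single library (78.3%), compared with 78.2% of all merged regions, and the other 62 formed consensus regions found in at least 2 libraries. The windows held 0.25% of the 24763 consensus regions of the series. A peak in 8 or more libraries was found for 9 of the 62 regions (14.5%), compared with 7.87% of all, and in all 10 libraries for 3 of 62 (4.84%), compared with 2.11%. None of those 9 regions was within 3 kb of a start of a listed gene. Of the 62 regions 11 were, and 43 summits lay in introns, 7 in exons and 12 between genes.

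Apart from the Ascl2 and Peg10 regions, the other 7 of the 9 recurrent regions lay in introns. Copg2 encodes a coat protein of vesicles, and its region chr6:30804756-30805776 had a peak in all 10 libraries, with 30, 13, 27, 23, 28 and 17 reads in F0 CD and 15, 26, 20 and 19 in F0 WD. Sgce, the epsilon-sarcoglycan gene that shares its start region with Peg10, had a region in all 10 libraries at chr6:4716115-4717083, with 11 to 24 reads, and another in 8 libraries at chr6:4735409-4736170, with 14 to 25 reads. A region in an intron of Ppp1r9a, a gene of the Peg10 cluster, had a peak in 9 libraries with 12 to 20 reads. The intronic regions of Trappc9 at chr15:72782170-72782928 and of Gnas at chr2:174304358-174304926 were found in 9 libraries each, with 11 to 24 and 13 to 32 reads, and that of Plagl1 at chr10:13079546-13080130 in 8 libraries with 10 to 21 reads. The diets overlapped in the reads of all 9 regions.

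**Figure D4:**
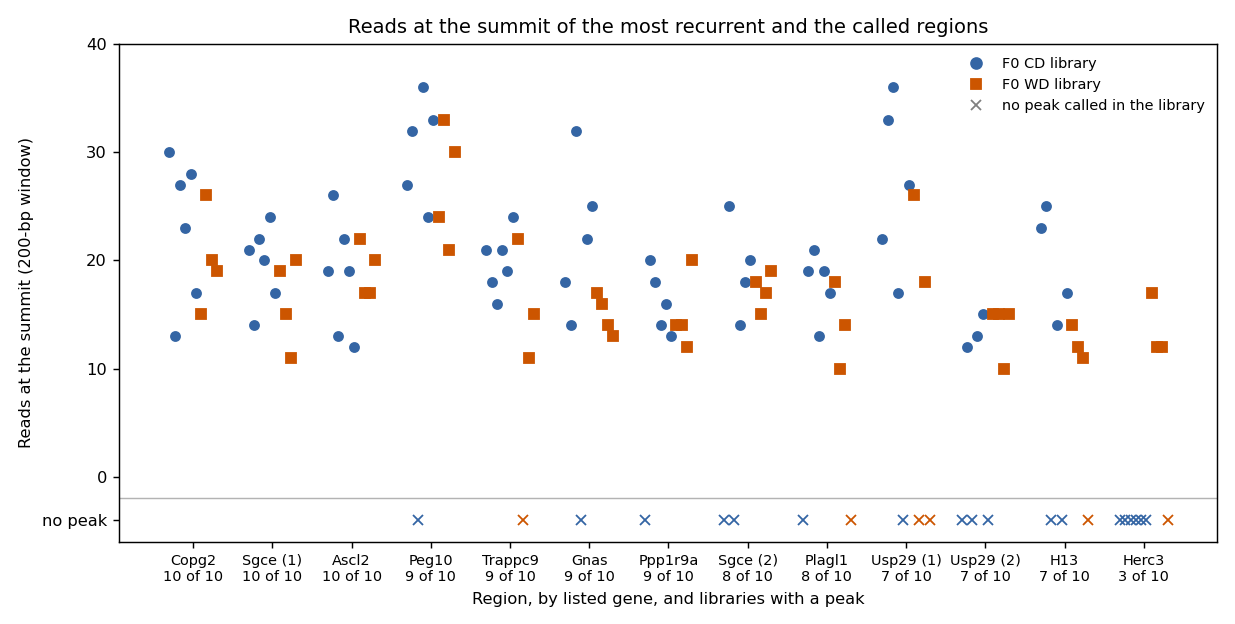
Reads at the best summit of each region in each library (y, reads per 200-bp window), for the regions found in 7 or more libraries and the Herc3 region called by diet (x, by listed gene, with the number of libraries). Circles are F0 CD, squares F0 WD and crosses libraries with no peak, whose reads are unknown. The Peg10 region reaches 36 reads, and the Herc3 region has 12 to 17 reads in 3 F0 WD libraries.

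The letters of the consensus regions at imprinted genes were set beside those of all regions, by count and without a test. At least 50% of the bases were repeat-masked in 28 of 62 regions (45.2%), compared with 68.7% of all consensus regions, and a CA or TG run of 10 or more units stood in 18 (29%), compared with 35.4%. Among the 16 regions found in 6 or more libraries, 13 (81.2%) were repeat-masked to at least 50%, beside the 88.8% of all regions of that recurrence. Only 2 of the 62 regions (3.23%) had a CpG observed over expected ratio above 0.6, compared with 11.5% of all. The hexamer TGCCGC, which the imprint-keeping factor ZFP57 binds when it is methylated, stood in 1 region (1.61%) and in 0.662% of all regions. A CTCF core consensus also stood in 1 region, compared with 0.313% of all, and a longer CTCF consensus in 0 of the 62 and 0 of all regions. These are matches of letters on either strand within 100 bp of the summit.

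**Figure D5:**
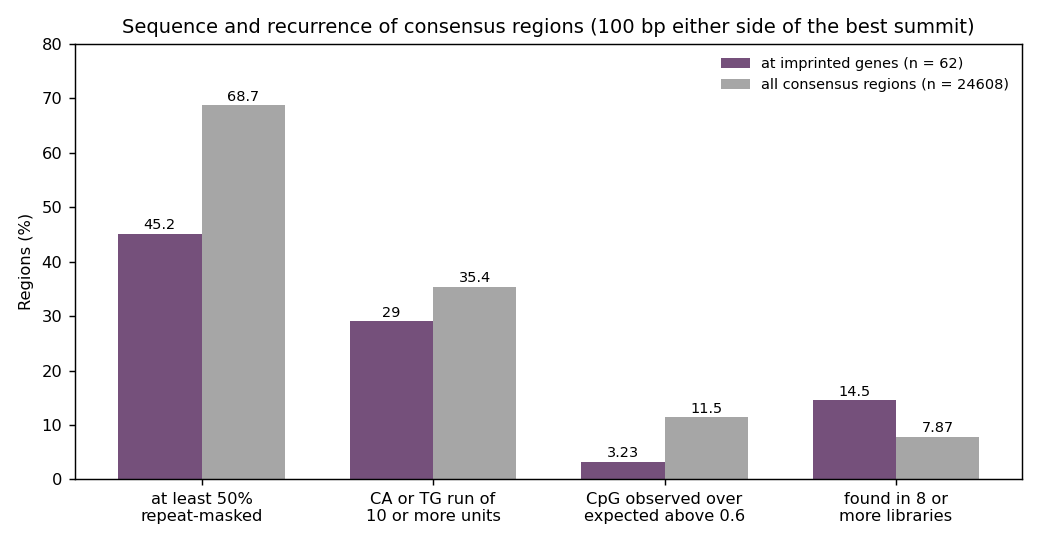
Percent of the 62 consensus regions at imprinted genes and of all 24608 consensus regions on chromosomes (y) with each feature of recurrence or of the sequence within 100 bp of the best summit (x). Repeat-masked regions make up 45.2% and 68.7%, and regions found in 8 or more libraries 14.5% and 7.87%.

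The diets were then compared gene by gene. The number of peaks per window was tested for every gene with a peak in at least 2 libraries by a two-sided exact permutation test with 210 arrangements, whose smallest p is 0.00476. Of the 25025 windows 322 were called at an unadjusted p under 0.05 (1.29%), 174 of them higher in F0 WD (0.695%) and 148 higher in F0 CD (0.591%), and after Benjamini-Hochberg adjustment over all windows 0 passed. Of the 42 imprinted windows tested 1 was called, that of Peg3. The mean was the higher in F0 WD in 18 of the 42 windows (42.9%), the lower in 21 and equal in 3, while it was the higher in 44.9% of all windows. The median difference, F0 WD minus F0 CD, was -0.0417 peaks over the 42 windows and -0.0833 over all windows.

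Peg3, a paternally expressed gene known for its part in fetal growth and maternal behaviour, had 0, 1, 0, 1, 1 and 0 peaks in F0 CD and 2, 2, 2 and 1 in F0 WD. Each F0 WD library was at or above the highest F0 CD library, and the mean was higher by 1.25 peaks in F0 WD (exact permutation test, two-sided, p = 0.0381, adjusted p = 1). All but 1 of its peaks lay in the region shared with Usp29 that is printed above, where F0 WD replicates 2 and 3 each had 2 separate intervals. That region, counted as present or absent, was not called by the test given above. In F0 WD replicate 3 the 2 intervals held 10 and 9 reads. The smallest called summits of F0 CD replicates 1 to 6 held 13, 9, 13, 10, 12 and 11 reads. The Usp29 window, which holds the same peaks and others, averaged 4.17 peaks in F0 CD and 4 in F0 WD. It was not called. The call of Peg3 was lost when any 1 of F0 WD replicates 1, 2 and 3 was left out, with an exact permutation p = 0.0595 in each case, and at q under 0.01 (p = 0.224).

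For promoters a two-sided Fisher's exact test was made of every gene with a promoter peak in at least 2 libraries. Of 7019 promoters 66 were called at an unadjusted p under 0.05 (0.940%), 39 of them in the direction of F0 WD (0.556%) and 27 in that of F0 CD (0.385%), and 0 passed after adjustment. Of the 17 imprinted promoters tested 1 was called, that of Gnas. Gnas encodes the stimulatory G protein alpha subunit and has 16 annotated start sites. It had no promoter peak in the 6 F0 CD libraries, and 1, 0, 1 and 2 promoter peaks in F0 WD replicates 1 to 4 (Fisher's exact test, p = 0.0333, adjusted p = 1). The call was lost when any 1 of F0 WD replicates 1, 3 and 4 was left out (Fisher's exact test, p = 0.0833). The same would hold for any promoter with these counts. The 4 peaks stood at 4 places, 2058, 11328, 16479 and 43129 bp downstream of the annotated 5′ end, and none of these places had a peak in a second library. They held 18, 10, 14 and 16 reads, and the smallest called summits of the F0 CD libraries held 9 to 13. Nespas, which shares 2 of these peaks, was found in 0 of 6 and 2 of 4 libraries (Fisher's exact test, p = 0.133). Grb10, an adaptor gene that restrains insulin signalling and growth, showed the opposite order, with a promoter peak in 4 of 6 F0 CD and 0 of 4 F0 WD libraries, and was not called (Fisher's exact test, p = 0.0762).

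Consensus regions were tested in the same way. Of 24763 regions 253 were called at an unadjusted p under 0.05 (1.02%), 137 of them in the direction of F0 WD (0.553%) and 116 in that of F0 CD (0.468%), and 0 passed after adjustment. Of the 62 regions at imprinted genes 1 was called (1.61%). It lies at chr6:58844332-58844758, in an intron of Herc3, a ubiquitin ligase gene that holds the imprinted gene Nap1l5 inside an intron, and its best summit was 10955 bp from the nearest Herc3 start. F0 WD replicates 1, 2 and 3 had a peak there with 17, 12 and 12 reads, and no F0 CD library had one (Fisher's exact test, two-sided, p = 0.0333, adjusted p = 1). Without any 1 of these 3 libraries the call was lost (Fisher's exact test, p = 0.0833), as it would be for any region with these counts. The smallest called summits of these 3 libraries held 11, 9 and 9 reads and their median summits 16, 14 and 13. Those of F0 CD replicates 1 to 6 held 13, 9, 13, 10, 12 and 11 reads at the smallest called summit. A summit of 12 reads was thus under the smallest one called in F0 CD replicates 1 and 3, and the absence of a peak there does not show closed chromatin. The shares of members called, 1 of 42, 1 of 17 and 1 of 62, stand beside the 1.29%, 0.940% and 1.02% of all windows, promoters and regions.

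Other genes of imprinted loci and genes that keep imprints were read in the same way. Of 16 regulators of imprints, among them Zfp57, Trim28, Ctcf and the DNA methyltransferases, 7 had a promoter peak in any library and 1 in 5 or more, Dnmt3a, found in 4 of 6 F0 CD and 1 of 4 F0 WD libraries (Fisher's exact test, p = 0.524). Of 30 other genes of imprinted loci, not all of them in the clusters of the listed genes, 15 had a promoter peak in any library. Tspan32, a tetraspanin gene of the Kcnq1 cluster that lies near Ascl2, had one in 9 libraries, and Snhg14, the long transcript of the Snrpn cluster, in 6. Of these lists 11 and 24 windows and 3 and 8 promoters were tested, and 0 were called by either exact test at an unadjusted p under 0.05. At the shares called over all windows and promoters, 1.29% and 0.940%, fewer than 1 call would fall among so few, so nothing is read from this count. Among the clusters of listed genes the density ran from 0.285 peaks per 100 kb in Snrpn-Ube3a to 2.57 in Gnas.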

How the data were processed

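ATAC-seq peak lists of sperm from 6 F0 CD and 4 F0 WD males were used, 1 per mouse. By the study's methods and processing notes, reads went through Trim Galore 0.6.10, were placed on mm10 (GRCm38) by Bowtie2 2.4.5 and lost their duplicates in Picard 2.24.0. Alignments of quality under 5 were dropped. Peaks came from MACS2 2.2.7.1 at q 0.05, run on fragments 50 to 115 bp long. Replicates were not pooled.

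The deposited score is the integer score of MACS2. The fold deposited by the authors is a ratio of summit reads to local background. The p and q values were deposited as −log10 values. Reads at a summit were solved from fold and p for 99.994% of 182970 summits, to 0.001 in −log10 p. Each list's lowest background, which moves with depth, was 2.11 to 4.42 reads per library.

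Distinct intervals were counted as peaks at 1 bp of overlap with a window. Intervals were merged at 1 bp, and regions in at least 2 libraries formed the consensus. Fisher's exact test was used for detection and exact permutation for numbers, over all regions or genes, with Benjamini-Hochberg adjustment. On simulated data, detection in 95% against 5% was recovered for 92.5% of 200 changed regions among 24763 and of 200 changed promoters among 7019. With detection in 80% against 20%, only 36% of the changed regions and 41.5% of the changed promoters were recovered. Means of 8 against 2 peaks were recovered for 95.5% of 200 changed windows among 25025, and means of 4 against 1 for 68%. Differences between classes of genes have no test. The replicate numbers were taken as names, and p-values measure the spread between these mice.

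The genes and lists were chosen with earlier results of these data known. Named were genes with a promoter peak in at least 5 libraries, genes called by diet, the 5 densest windows, genes next to sperm-methylated control regions, genes without a peak, and regions in at least 8 libraries or called. Grb10, the genes of related lists and the Usp29 region were chosen with their values in view. The alternatives were the q threshold, equal numbers of peaks, the flank, midpoints, summits, the promoter window, the start sites used, scaling to 10000 peaks, 3 libraries, mid-p, strict classes, each library left out and the replicate block. A sequence that was withheld is not reported here. Scripts used pysam 0.24.0, pandas 2.3.3, scipy 1.17.1, matplotlib 3.10.9, numpy 2.4.6 and Python 3.11.15.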

Additional observations from a re-analysis of the deposited data

Results flagged for a closer look

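Over 24 groups of libraries examined, 2 held a library whose gap to the nearest other library was large for the range of its group, and chance alone marks about 1 group in 20. In F0 CD replicate 1, 0% of the 50 genes had a promoter peak, while the other F0 CD libraries had 14% to 20%. That library had 13601 peaks, the fewest of its group, and its smallest called summits held 13 reads. In F0 WD replicate 1 the paternally expressed windows held 1.27 peaks outside promoters per 100 kb of whole window, while the other F0 WD libraries held 0.864 to 0.922. That library had 19526 peaks, the most of its group. The part of depth in either value was not tested.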

How the results depend on the processing

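The count of called windows, promoters and regions at imprinted genes was 1 each. At q under 0.01 it was 0 windows, 0 promoters and 2 regions. With no flank it was 0 windows. With the same number of best peaks per list the 1 window called was that of Rasgrf1, and that of Peg3 was not called (exact permutation p = 0.119). With those lists, a promoter window of 1 kb or the annotated 5′ end alone it was 0 promoters in each case, and with mid-p it was 2 promoters, Gnas and Grb10. The pairs of shared replicate numbers (replicate block) gave 0 in all 3 tests, but 4 pairs cannot give a p under 0.05. The deviations of same-numbered libraries correlated between -0.0109 and 0.0356, and those of other pairs between -0.0421 and 0.0497. With all values this near 0, the check cannot show whether the numbers pair the mice. Leaving out each library in turn gave 0 to 2 windows, 0 to 2 promoters and 0 to 2 regions. Grb10 was called without F0 CD replicate 1 or 3, where it had no promoter peak, as would any promoter with these counts. Over all features, 322 windows were called, compared with 177 with no flank, 648 per 10000 peaks of the library and 226 to 577 with a library left out. Over all promoters 66 were called, compared with 21 with a window of 1 kb, 31 at the annotated 5′ end, 159 with mid-p and 60 to 129 with a library left out. Over all regions 253 were called, compared with 539 with mid-p and 239 to 460 with a library left out. The cause of these changes was not tested. The paternal minus maternal difference in peaks outside promoters was -0.231 per 100 kb with no flank and was from -0.111 to -0.0471 with a library left out. Divided by the length outside promoters, an alternative chosen after seeing the data, it was -0.0257. That in promoter share ranged from -3.74 to 1.65 percentage points when a library was left out, the last without F0 CD replicate 2. The differences between the diets in the number and the share of peaks in imprinted windows moved by less than the spread between libraries under the alternatives run, and with a library left out they ranged from -3.17 to 7.55 peaks, negative without F0 CD replicate 1 or 5 or F0 WD replicate 1, and from 0.0275 to 0.0539 percentage points. Depth limits what a missing peak shows, since summits under 9 to 13 reads were not called.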
